A study of Homo sapiens with 6 samples.

Results

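Mitochondria carry their own genome and their own ribosome. This section describes the 13 mRNAs of the mitochondrial genome (mtDNA) and the mitoribosome genes in human lung fibroblasts with and without doxycycline-induced knockdown of ZNF469. Members were chosen by symbol: names that begin with MT-ND, MT-CO, MT-ATP or MT-CYB, and names formed as MRPL or MRPS with a number. The rule used no measured value, and it took 91 of the 23754 features in the count table, 13 mtDNA mRNAs and 78 mitoribosome genes. All 91 had enough counts to be tested.

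IMR-90 is a line of fetal lung fibroblasts. All 6 libraries came from IMR-90 cells maintained in puromycin after transduction with a Tet-pLKO-puro vector. According to the paper, both groups were the same line carrying the inducible sh-2 hairpin against ZNF469. The Sh-ZNF469 group (3 libraries) received doxycycline at 2 µg/mL for 4 days, and the Control group (3 libraries) received none. The submitted labels call the Control genotype wild-type. Every Sh-ZNF469 library had both the drug and the induced hairpin, and no library had the drug without the hairpin, so their effects cannot be told apart here.

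The mtDNA mRNAs are released from long transcripts, most of them by removal of the tRNAs that lie between them, and are translated inside the organelle by the mitoribosome. They encode core subunits of respiratory complexes I, III and IV and of the ATP synthase (complex V). The mitoribosomal proteins are encoded in the nucleus, made in the cytosol and imported. Doxycycline, as a tetracycline, is known to inhibit protein synthesis by this bacterial-type ribosome, which is why these genes are of interest where the drug is the inducer; RNA-seq measures the mRNAs and not their translation.

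Libraries held 34057675 to 36120260 counts, and mtDNA mRNAs took 1.65% to 1.75% of them in the Control group and 1.70% to 1.73% in the Sh-ZNF469 group. Levels are given as CPM, the counts scaled to library size with TMM factors, which ran from 0.988 to 1.01, and per transcript length as the deposited FPKM. The targeted gene ZNF469 stood at 118, 112 and 126 CPM in the Control libraries and at 80.4, 80.4 and 79.6 CPM in the Sh-ZNF469 libraries. Its log2 fold change was −0.57 (SE 0.0477, adjusted p = 3.31e-05); adjusted p-values come from edgeR's quasi-likelihood test, with the Benjamini-Hochberg method applied across 13991 features. Sh-ZNF469 replicate 2 stood apart on the first principal component (score 32.8, against −12.6 to 0.524 for the others), and values without it are given where they change a call. The submitted design speaks of technical replicates, so p-values measure the spread between these libraries only. Of 9 fibroblast markers all passed the filter; 5 of them were called lower in Sh-ZNF469, the collagen genes COL1A1, COL1A2 and COL3A1 in 17 of 17 alternatives, DCN in 15 (not without Control replicate 1) and LUM in 8 (1 of the 6 fits without a library, that without Sh-ZNF469 replicate 2). Of the markers of other cell types, 1 of 6 epithelial, 2 of 4 endothelial, 1 of 5 immune and 4 of 4 smooth muscle genes passed, with 0 called; KRT5, SFTPC, PECAM1, CDH5 and CD3E had 0 counts in every library and PTPRC had at most 6. Other genes of these lists were present: CD68 at 58.8 to 66.7 CPM, TEK at 19.3 to 23.6 CPM, CNN1 at 201 to 223 CPM and ACTG2 at 537 to 587 CPM. In bulk RNA, fewer cells of a type and less RNA per cell cannot be told apart.

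The mRNAs that changed most lie side by side in the mitochondrial genome and share bases, which is why their reference sequence is shown. MT-ATP8 (ENSG00000228253), a small membrane subunit of the ATP synthase, occupies chrM:8366-8572 on the plus strand of GRCh38, 207 bases of protein-coding sequence with no intron. MT-ATP6 (ENSG00000198899), the subunit that forms part of the proton channel, occupies chrM:8527-9207, 681 bases on the same strand. Both are carried on 1 bicistronic mRNA, although each reading frame is counted here as 1 of the 13 mtDNA mRNAs. The 46 bases that they share (8527 to 8572) are in capitals in the MT-ATP8 sequence of the hg38 reference.
MT-ATP8: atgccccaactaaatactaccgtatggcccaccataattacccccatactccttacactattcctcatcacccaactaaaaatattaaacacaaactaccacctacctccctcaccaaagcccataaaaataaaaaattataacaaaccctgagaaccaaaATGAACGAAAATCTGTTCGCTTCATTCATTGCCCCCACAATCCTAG
The capitals open with the ATG of MT-ATP6 and end with the last base of MT-ATP8. MT-ATP8 has 68 codons before its stop and MT-ATP6 has 226, in a frame shifted by 2 bases, so the shared stretch is read in different frames.

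The border between MT-ATP6 and MT-CO3, which encodes a subunit of cytochrome c oxidase, has no tRNA. It is shown from chrM:9193-9221 because the change stopped being called across it, and the single capital marks the base 9207 that both genes hold.
MT-ATP6 to MT-CO3: cacgacaacacataAtgacccaccaatca
The other overlapping pair, MT-ND4L and MT-ND4, which encode membrane subunits of complex I, is shown from chrM:10745-10781 for comparison, with the 7 shared bases (10760 to 10766) in capitals.
MT-ND4L to MT-ND4: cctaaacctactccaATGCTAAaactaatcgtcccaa
How reads on shared bases were assigned is not given in the sources used here.

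Per transcript length, the mtDNA mRNAs were far above the mRNAs of the ribosome that translates them. Mean FPKM over the 6 libraries ran from 273 for MT-ND3 to 4086 for MT-CO2, with a median of 1129 over the 13. The large-subunit genes had a median of 21.9 FPKM (range 4.57 to 60.0, 51 genes) and the small-subunit genes a median of 21.0 FPKM (range 3.95 to 69.9, 26 genes). No mitoribosome gene reached the FPKM of the lowest mtDNA mRNA.

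**Figure D1:**
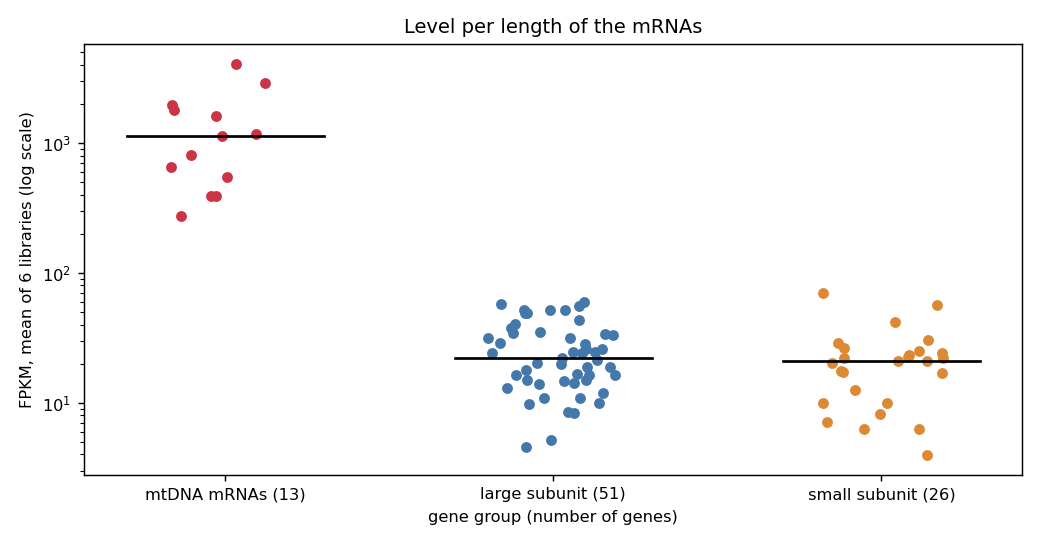
Mean FPKM over 6 libraries (vertical axis, log scale) of each mtDNA mRNA, large-subunit gene and small-subunit gene (horizontal axis); each point is a gene and each line a group median. The mtDNA mRNAs, at 273 to 4086 FPKM, lie above every mitoribosome gene, the highest of which is at 69.9 FPKM; MRPS36 is not drawn.

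The summed level of the 13 mtDNA mRNAs overlapped between the groups, while single mRNAs within it differed. The sum was 16575, 16593 and 17744 CPM in the Control libraries and 17238, 16748 and 17219 CPM in the Sh-ZNF469 libraries, and the Sh-ZNF469 mean was 101% of the Control mean. MT-ATP8, MT-ATP6 and MT-ND2 rose and MT-CO1 fell by the test across all features. The 3 called higher are to be read against 0.400% of all features tested, and the 1 called lower against 0.715%. Among the 3, MT-ATP8 and MT-ATP6 lie on 1 bicistronic mRNA, so their calls are not separate observations. Of the 13 log2 fold changes, 8 were above and 5 below 0, with a median of 0.02 beside −0.0019 over all features tested. The libraries of the groups did not overlap for 3 mRNAs in the higher direction and 3 in the lower direction, where 9.73% and 10.6% of all features did not overlap.

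**Figure D2:**
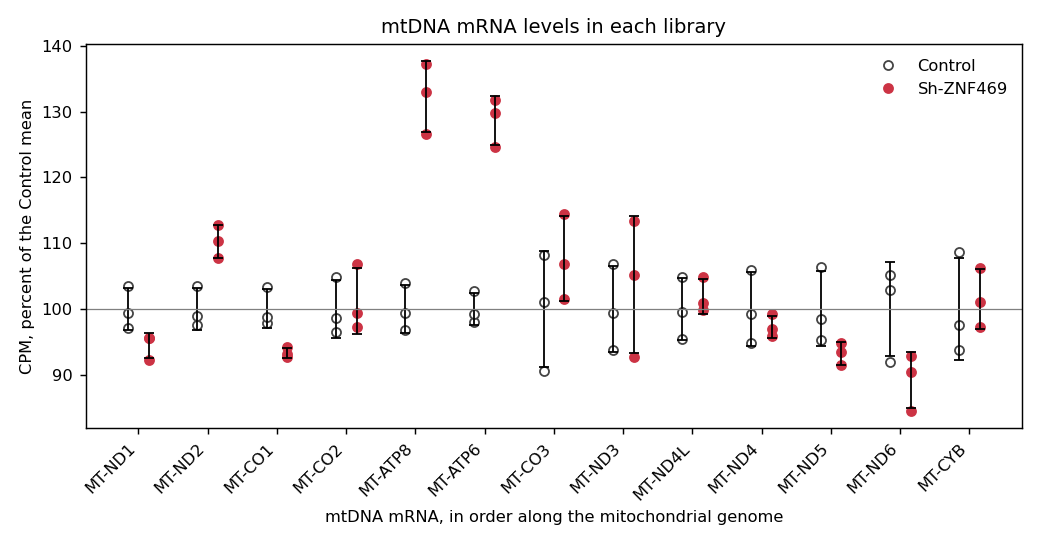
CPM of each mtDNA mRNA in each library as a percentage of that mRNA's Control mean (vertical axis), in genome order (horizontal axis); open circles are Control and filled circles Sh-ZNF469 libraries, and bars span the mean ± SD of 3 libraries. All 3 Sh-ZNF469 libraries of MT-ATP8 and MT-ATP6 lie far above the Control libraries, while most other mRNAs overlap or nearly so.

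For complex V, MT-ATP6 stood at 1041, 1052 and 1090 CPM in the Control libraries and at 1398, 1322 and 1378 CPM in the Sh-ZNF469 libraries. Every Sh-ZNF469 library was above every Control library. The log2 fold change was 0.36 (SE 0.0287, adjusted p = 2.29e-05), or 129% of the Control level.
MT-ATP8 stood at 396, 369 and 379 CPM in the Control libraries and at 523, 507 and 482 CPM in the Sh-ZNF469 libraries, again with no overlap. Its log2 fold change was 0.40 (SE 0.0383, adjusted p = 9.76e-05), or 132% of the Control level. The two-sided exact permutation p was 0.1 for each, the smallest that 3 libraries against 3 can give. Both kept their calls in 17 of 17 alternative settings, including each fit without 1 library, over which the log2 fold change ran from 0.35 to 0.39 for MT-ATP6 and from 0.38 to 0.43 for MT-ATP8.

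MT-ATP8 and MT-ATP6 together made up 8.67%, 8.56% and 8.28% of the counts on the 13 mtDNA mRNAs in the Control libraries and 11.1%, 10.9% and 10.8% in the Sh-ZNF469 libraries. The Sh-ZNF469 share was 1.29 times the Control share (two-sided exact permutation p = 0.1), a comparison within each library that does not depend on how the libraries were scaled. The count of MT-ATP8 over that of MT-ATP6 did not separate the groups: it was 0.359 ± 0.0182 (SD, n = 3) in Control and 0.369 ± 0.0172 (SD, n = 3) in Sh-ZNF469 (exact permutation p = 0.6).
The neighbours on both sides moved less. MT-CO2, upstream and encoding a copper-bearing subunit of cytochrome c oxidase, had a log2 fold change of 0.02 (95% interval −0.06 to 0.09). MT-CO3, downstream, stood at 848, 947 and 1013 CPM in Control and 1000, 950 and 1071 CPM in Sh-ZNF469, with a log2 fold change of 0.11 (95% interval −0.01 to 0.23, adjusted p = 0.398). Its groups overlapped. The count of MT-ATP6 over that of MT-CO3 was 1.23, 1.11 and 1.08 in the Control libraries and 1.40, 1.39 and 1.29 in the Sh-ZNF469 libraries, without overlap (exact permutation p = 0.1, the smallest possible).

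Complex I has 7 subunits encoded in mtDNA, and they did not move together. MT-ND2, a membrane subunit, stood at 867, 854 and 908 CPM in the Control libraries and at 988, 966 and 944 CPM in the Sh-ZNF469 libraries, every Sh-ZNF469 library above every Control library. The log2 fold change was 0.14 (SE 0.0303, adjusted p = 0.0462). This call was near its threshold: it held in 2 of the 6 fits that left out 1 library and was lost without Control replicate 1 or 2 or Sh-ZNF469 replicate 1 or 2, at log2 fold changes of 0.12 to 0.14. Without Sh-ZNF469 replicate 2, the library that stood apart, the log2 fold change was 0.14.
MT-ND1 (687, 704 and 732 CPM in Control; 676, 652 and 676 CPM in Sh-ZNF469) and MT-ND5 (798, 771 and 861 CPM; 757, 741 and 769 CPM) did not overlap between groups and lay lower in Sh-ZNF469. Their log2 fold changes of −0.08 and −0.10 did not pass the test (adjusted p = 0.236 and 0.225). MT-ND6, the single mRNA of the opposite strand, stood at 350, 306 and 343 CPM in Control and 309, 301 and 281 CPM in Sh-ZNF469. Its groups overlapped, and its log2 fold change of −0.16 (SE 0.0508) did not pass the test (adjusted p = 0.153). Whether strand was used in counting is not given in the sources used here, so reads of MT-ND6 and antisense reads from the other strand cannot be told apart. The libraries were poly(A)-selected, and how that selection affected MT-ND6 or any other mtDNA mRNA was not tested.
MT-ND3, MT-ND4L and MT-ND4 overlapped between groups, at log2 fold changes of 0.05, 0.03 and −0.04. For the overlapping pair, the count of MT-ND4L over that of MT-ND4 was 0.140, 0.141 and 0.138 in Control and 0.148, 0.146 and 0.146 in Sh-ZNF469, without overlap, a ratio of group means of 1.05 (exact permutation p = 0.1), beside 1.03 for MT-ATP8 over MT-ATP6.

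Complex IV has 3 mtDNA-encoded subunits. MT-CO1, the catalytic subunit of cytochrome c oxidase and the mRNA with most counts (30.2% of the 13 in Control), stood at 5005, 5054 and 5290 CPM in the Control libraries and at 4818, 4741 and 4767 CPM in the Sh-ZNF469 libraries, without overlap. It fell by 0.10 on the log2 scale (SE 0.0211, adjusted p = 0.0428). The call was lost without any single library (log2 fold change −0.11 to −0.07, adjusted p = 0.0813 to 0.142), so it rests on all 6. MT-CYB, the mtDNA-encoded subunit of complex III, had a log2 fold change of 0.02 with overlapping groups.
For 10 of the 13 mRNAs, the 95% interval of the change lay within 1.2-fold in either direction, at 3240 to 184491 counts per mRNA and library. These intervals hold for the spread between these libraries and for TMM scaling only.

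**Figure D3:**
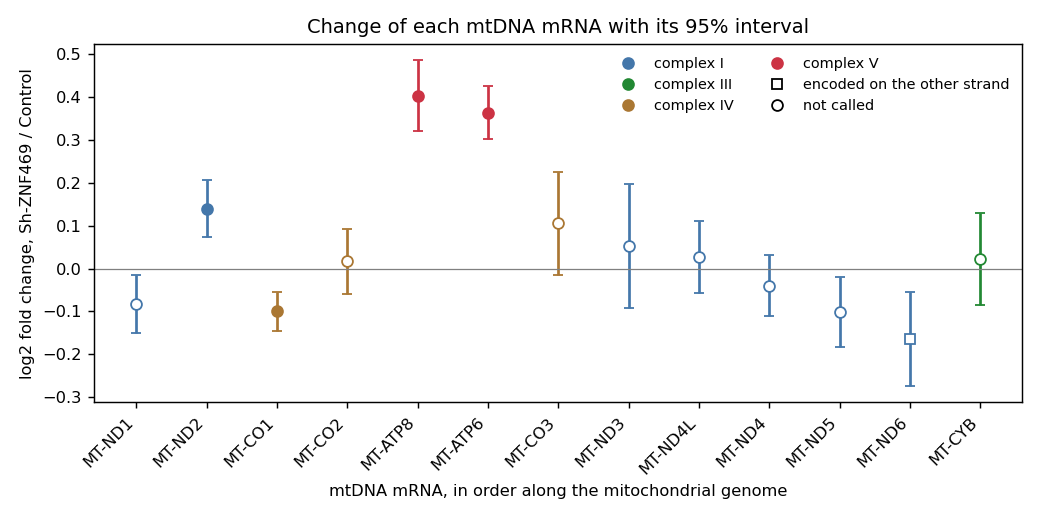
Log2 fold change, Sh-ZNF469 over Control (vertical axis), of each mtDNA mRNA in genome order (horizontal axis), with 95% intervals; filled symbols passed the test, open symbols did not, colours give the respiratory complex and the square marks the mRNA of the opposite strand. MT-ATP8 at 0.40 and MT-ATP6 at 0.36 stand above all others, the next being MT-ND2 at 0.14.

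No mitoribosome gene was called in either direction by edgeR's quasi-likelihood test, nor by DESeq2, limma-voom or any other alternative at the same adjusted threshold. Of the 78 genes, 60 were lower and 18 higher in Sh-ZNF469; the median log2 fold change was −0.04 and a range of −0.26 to 0.15. Their summed level was 2719, 2766 and 2737 CPM in the Control libraries and 2668, 2665 and 2672 CPM in the Sh-ZNF469 libraries. Each Sh-ZNF469 sum was below each Control sum, and their mean was 97.3% of the Control mean; it was 98.8% when counts were scaled by library size alone. At an unadjusted p under 0.05, 10 genes were lower and 2 higher, where 7.69% and 7.31% of all features passed. The groups did not overlap for 12 genes, all lower (15.4%, against 10.6% of all features). Shares by transcript length are given below.
Among 51 genes of the large subunit 41 were lower (median log2 fold change −0.04), and among 26 of the small subunit 18 were lower (median −0.03). The 95% interval lay within 1.2-fold for 62 of the 78 genes, at 302 to 3603 counts per gene and library. It reached past 1.2-fold lower for 14 and past 1.2-fold higher for 2. The lowest limit of any interval was −0.45 and the highest 0.29 on the log2 scale. Each interval is for a single gene and not for the set.

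**Figure D4:**
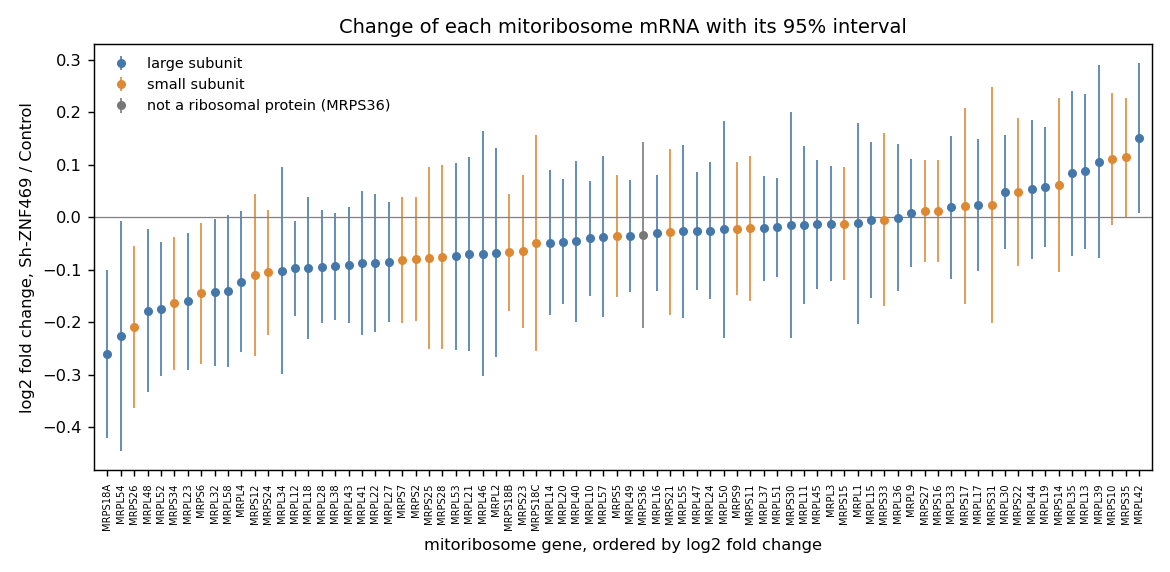
Log2 fold change, Sh-ZNF469 over Control (vertical axis), of the 78 mitoribosome genes ordered by that value (horizontal axis), with 95% intervals and the subunit in colour. The order runs from −0.26 (MRPS18A) to 0.15 (MRPL42), both of the large subunit; small-subunit genes run from −0.21 to 0.11, and 60 of 78 points lie below 0.

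The gene with the smallest p was MRPS18A, which despite its name encodes a protein of the large subunit. It stood at 25.7, 24.3 and 24.3 CPM in Control and at 18.9, 20.5 and 22.6 CPM in Sh-ZNF469. The groups did not overlap, but its log2 fold change of −0.26 (SE 0.0743) did not pass the test (adjusted p = 0.123). Of its exon bases, 50.9% are shared with RSPH9 on the opposite strand, so its reads are uncertain.
The next smallest p-values in the lower direction, among large-subunit genes, belonged to MRPL52, MRPL23, MRPL48 and MRPL12, with log2 fold changes of −0.18, −0.16, −0.18 and −0.10 (adjusted p = 0.188, 0.228, 0.266 and 0.294). MRPL12, a stalk protein also known to bind the mitochondrial RNA polymerase, was at 67.2, 66.3 and 69.4 CPM in Control and 63.0, 62.4 and 64.1 CPM in Sh-ZNF469. It shares 69.5% of its exon bases with another protein-coding gene on the same strand, so its reads are uncertain too. All 4 genes lay lower in Sh-ZNF469 without overlap. MRPL54 and MRPL32, named after their values were seen, lay lower by fold than some of these, at −0.23 and −0.14 (adjusted p = 0.315 and 0.321), and their groups overlapped. In the small subunit the genes with the smallest p-values were MRPS26, MRPS34 and MRPS6, at −0.21, −0.16 and −0.15 (adjusted p = 0.188, 0.211 and 0.291). MRPS26 stood at 20.9, 23.8 and 23.9 CPM in Control and 19.6, 20.1 and 19.7 CPM in Sh-ZNF469, while the libraries of MRPS34 overlapped; 31.2% of the exon bases of MRPS34 are shared with EME2 on the opposite strand.

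In the higher direction the smallest p-values belonged to MRPL42 and MRPS35, at log2 fold changes of 0.15 and 0.11 (adjusted p = 0.309 and 0.330). MRPL42 stood at 49.2, 51.03 and 44.1 CPM in Control and 52.2, 58.1 and 49.8 CPM in Sh-ZNF469, with overlap, and its sign turned in the deposited FPKM (log2 fold change −0.40). The next 6 in this direction were MRPS10, MRPL13, MRPL39, MRPL35, MRPL19 and MRPL30, at 0.05 to 0.11, with adjusted p from 0.403 to 0.709.
The most abundant mitoribosome mRNAs per length were MRPS24, MRPL20 and MRPL12, at 69.9, 60.0 and 57.9 FPKM, and their log2 fold changes were −0.11, −0.05 and −0.10. The least abundant were MRPS25, MRPL50 and MRPL42, at 3.95, 4.57 and 5.15 FPKM, with log2 fold changes of −0.08, −0.02 and 0.15. Among members whose names mislead, MRPS30 (a large-subunit protein) was at −0.02 and MRPS36 (a component of the 2-oxoglutarate dehydrogenase complex and not of the ribosome) at −0.03. The remaining S18 paralogs, MRPS18B and MRPS18C, both of the small subunit, were at −0.07 and −0.05. Shared exon bases make reads uncertain for MRPS18C (40.2%, with ABRAXAS1), MRPS25 (39.1%, with NR2C2) and MRPS24 (23.2%, with a readthrough gene) as well.

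Transcript length moved with these values. Of 26 mitoribosome genes with a canonical transcript under 1000 bp, 25 were lower in Sh-ZNF469 (median log2 fold change −0.08); over the 683 other features of that length the median was also −0.08, and 76.3% were lower. From 1000 to 2000 bp, 26 of 34 mitoribosome genes were lower (median −0.03), beside 63.9% of 2240 other features (median −0.04). Over 2000 bp, 9 of 18 were lower (median 0.003), beside 45.4% of 9757 other features (median 0.01). Groups did not overlap, in the lower direction, for 19.2% of mitoribosome genes under 1000 bp, beside 23.4% of the other features. From 1000 to 2000 bp these shares were 17.65% and 15.76%, and over 2000 bp they were 5.56% and 8.97%. With a trend on length removed from each library, the mitoribosome median was 0.01 in place of −0.04. The part of length in the lower values was not otherwise tested.
MT-ATP8 and MT-ATP6, annotated at 207 and 681 bases, lay on the other side: features under 1000 bases were mostly lower, and removing the trend left both called higher. Those lengths are of the reading frames and not of the bicistronic mRNA that carries both.

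**Figure D5:**
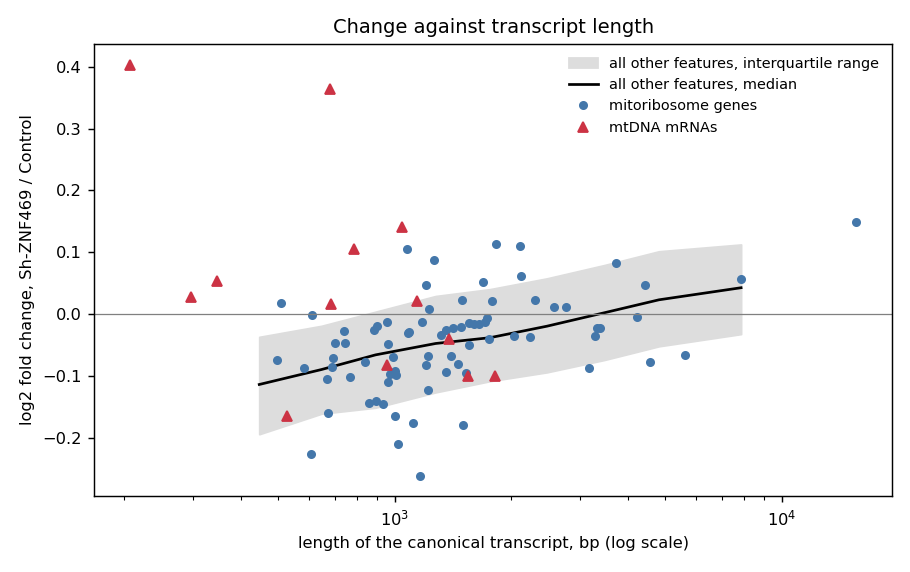
Log2 fold change, Sh-ZNF469 over Control (vertical axis), against the length of the canonical transcript (horizontal axis, log scale) for mitoribosome genes (circles) and mtDNA mRNAs (triangles); the line and band are the median and interquartile range of all other features tested, in length classes. The mitoribosome genes lie around the line, while MT-ATP8 (reading frame of 207 bases) and MT-ATP6 (reading frame of 681 bases) lie well above the band.

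Genes that serve the same system were taken as lists. Their counts at an unadjusted p under 0.05 are to be read against 7.31% of all features in the higher and 7.69% in the lower direction. None of the 5 mitoribosomal proteins with other names was called; PTCD3, a small-subunit protein, stood at 39.8, 42.8 and 42.4 CPM in Control and 47.1, 46.6 and 43.99 CPM in Sh-ZNF469 (log2 fold change 0.14, adjusted p = 0.222), and GADD45GIP1 of the large subunit was at −0.11. At an unadjusted p under 0.05, 1 of the 5 passed, in the higher direction. A list of 17 genes held translation factors together with some factors of protein insertion and cytochrome c oxidase assembly. Of these 17, 0 were called and 0 had an unadjusted p under 0.05, with a median log2 fold change of −0.02. The smallest p-values belonged to MRRF, which recycles the ribosome, and COA3, which acts in the synthesis of the MT-CO1 protein, at −0.14 and −0.12.
Of 28 genes for ribosome assembly and rRNA modification 0 were called (1 higher and 1 lower at an unadjusted p under 0.05), with a median of −0.06. GTPBP10, a GTPase of large-subunit assembly, was at 0.28 (adjusted p = 0.161) and ERAL1, which binds the small-subunit rRNA, at −0.11 (adjusted p = 0.293). Of 16 chaperones and proteases, which handle proteins in the organelle, 0 were called (1 higher and 5 lower at an unadjusted p under 0.05). Without overlap, 5 (31.2%) lay lower and 2 lay higher, against 10.6% and 9.73% of all features. LONP1 was at −0.15 and TRAP1 at −0.14, while YME1L1 was at 0.11.
Among 14 genes of mtDNA replication and transcription 0 were called (2 higher and 0 lower at an unadjusted p under 0.05), and the median was 0.06. TFAM, which packages mtDNA and starts its transcription, stood at 29.0, 28.3 and 26.1 CPM in Control and 30.4, 35.5 and 32.3 CPM in Sh-ZNF469. All its Sh-ZNF469 libraries were above its Control libraries, with a log2 fold change of 0.24 that did not pass the test (adjusted p = 0.130). TEFM, the elongation factor of mtDNA transcription, was likewise separated, at 0.29 (adjusted p = 0.218).
Of 19 genes for the processing and stability of mitochondrial RNA 0 were called (1 higher and 2 lower at an unadjusted p under 0.05). DESeq2 and limma-voom called no gene of these 6 lists, except that DESeq2 called YME1L1, a protease, higher. SLIRP, which with LRPPRC stabilises mtDNA mRNAs, was at −0.22 (adjusted p = 0.161) and FASTK at −0.12 (adjusted p = 0.284). None of the 24 other mtDNA genes, the rRNAs and tRNAs, was among the features with deposited counts, so they could not be analysed.

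None of the nuclear partners of the mtDNA-encoded subunits was called higher. Of 18 nuclear genes of complex V (the inhibitor ATP5IF1 included) 0 were called, 15 were lower, and the median log2 fold change was −0.07, with 0.03 as the highest value; 4 were lower at an unadjusted p under 0.05 (7.69% of all features were), and DESeq2 called 2 lower (ATP5F1E and ATP5ME). Complexes III and IV had 9 and 10 nuclear genes tested, none called, with medians of −0.07 and −0.06 (2 lower in each at an unadjusted p under 0.05; DESeq2 called 1 of complex III, UQCRFS1). Of 38 genes taken by name for nuclear complex I the median was −0.05, and 8 were lower at an unadjusted p under 0.05. These 38 include NDUFA4, at −0.05, a subunit of complex IV that the complex IV genes above therefore leave out. Of the 38, 1 was called, NDUFS6, which lay lower (log2 fold change −0.29, adjusted p = 0.0113) and is named because it was the single call. DESeq2 called NDUFA11 lower besides. The NDUFS6 call held in 12 of 17 alternatives and was lost with limma on FPKM, with the length trend removed, and without Control replicate 1, Control replicate 3 or Sh-ZNF469 replicate 1. Libraries did not overlap, in the lower direction, for 7 of the complex I genes (18.4%), 2 of complex III (22.2%), 2 of complex IV (20.0%) and 8 of complex V (44.4%). This share was 10.6% over all features. It was 23.4% over the 683 features other than members with a canonical transcript under 1000 bp. The median canonical length was 694 bp in complex I, 1573 bp in complex III, 660 bp in complex IV and 708 bp in complex V.

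Failure of mitochondrial protein synthesis is known to switch on a stress response through ATF4. Of 15 genes taken for it, 14 had enough counts, and all 14 lay lower in Sh-ZNF469 without overlap (10.6% of all features did); 9 were called lower (0.715% of all features were; 11 of the 14 by DESeq2, 5 by limma on FPKM) and none higher, and the median change was −0.33 (log2). FGF21 had 0 counts in every library. The list was chosen with earlier results of these data known, so these shares describe its genes and do not test the list. ASNS, which makes asparagine, stood at 94.7, 92.4 and 88.1 CPM in Control and 59.3, 58.1 and 57.6 CPM in Sh-ZNF469, a log2 fold change of −0.65 (adjusted p = 4.10e-06). PSAT1 and PHGDH of serine synthesis were at −0.67 and −0.47, and MTHFD2 and PCK2, mitochondrial enzymes of folate metabolism and of phosphoenolpyruvate synthesis, at −0.34 and −0.69.
The signalling genes TRIB3, CHAC1, GDF15 and DDIT4 were at −0.69, −0.29, −0.32 and −0.56, all called lower. ATF4 itself, at −0.14, did not pass edgeR's quasi-likelihood test (adjusted p = 0.0795) or limma-voom, while DESeq2 called it lower. These genes also respond to amino acid supply and other stresses, and what moved them was not tested.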

How the data were processed

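Poly(A)-selected RNA from 6 IMR-90 libraries was sequenced in pairs. According to the paper and the submitters' processing notes, HISAT2 aligned the reads to GRCh38 and StringTie was then run; the annotation release and the counting step are not given in the sources used here. The deposited values are whole-number read counts per gene, not normalized, and FPKM values computed by the authors; the latter gave levels and 1 alternative. Of 23771 lines, 17 without a gene were dropped. Unannotated loci took 0.938% to 0.996% of counts.

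Counts were filtered with filterByExpr (minimum count 10), scaled by TMM and compared by edgeR 4.0.16 (quasi-likelihood, no covariates; R 4.3.3), with Benjamini-Hochberg adjustment over 13991 features and a threshold of 0.05. SE is the absolute log2 fold change over the square root of F, from which the 95% intervals follow. The common biological coefficient of variation was 7.31%. Positions, lengths and overlaps came from GENCODE, whose release may differ from the authors'. At 34057675 to 36120260 counts per library, counting error was small for the mtDNA mRNAs (3240 counts or more) and larger for mitoribosome genes (from 302 counts). Permutation tests were exact and two-sided. Scripts were tested on simulated counts.

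Named genes are the mtDNA mRNAs, the 8 mitoribosome genes with the smallest p in each direction, the 3 with the highest and lowest FPKM, those with misleading names, called list genes with the 2 smallest p in each list, and ZNF469. Genes outside this rule (NDUFS6, NDUFA4, ATF4, ATP5IF1, FGF21, YME1L1, MRPL54, MRPL32, the genes DESeq2 added and the markers) were named after their values were seen. The members and lists were chosen with earlier results of these data known. Alternatives were other filters, scalings and tests (DESeq2 1.42.0, limma-voom and limma 3.58.1 on log2(FPKM + 0.1)), length and GC trends (lowess span 0.3), the replicate number as a block, leaving out each library, and unadjusted p. The FPKM fit and the sums per nuclear count were added after seeing the data.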

Additional observations from a re-analysis of the deposited data

How the results depend on the processing

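Calls of MT-ATP8 and MT-ATP6 held in all 17 alternatives; MT-ND2 was called in 11 and MT-CO1 in 6. The count of mtDNA mRNAs called lower, 1 here, was 4 at an unadjusted p, 2 with DESeq2 (which added MT-ND6), and 0 with limma-voom, limma on FPKM, library size scaling, no filter, the length trend removed and each library left out (0 to 0). The median of the mtDNA mRNAs became 0.10 with the length trend removed. Mitoribosome calls became 2 higher and 10 lower at an unadjusted p. Their median, −0.04 here, was 0.012 with the length trend removed, −0.015 with library size scaling (which moved the median of all features to 0.02), 0.00056 in FPKM and −0.054 to −0.032 with a library left out; their summed CPM was 98.8% of Control with library size scaling and also per nuclear count. Replicate numbers did not pair the libraries (correlations of same-numbered deviations −0.0241, −0.0352 and 0.0363); with the replicate block, mtDNA calls stayed at 3 higher and 1 lower and mitoribosome calls at 0, while calls over all features went from 156 to 292. They were 478 with DESeq2, 290 without a filter, 289 with the GC trend removed, 30 in FPKM and 74 to 161 with a library left out, lowest without Sh-ZNF469 replicate 1. Signs turned for the genes that follow, all of them uncalled. With the length trend removed, MT-ND4 was at 0.0067, MRPL20 at 0.032, MRPS30 at 0.025 and MRPS36 at 0.015; with the GC trend removed, MT-ND4L was at −0.0023 and MRPL19 at −0.018; in FPKM, MRPL42 was at −0.40, MRPL50 at 0.0060 and MRPS30 at 0.023; and with library size scaling MRPS30 was at 0.0054. With a library left out, MT-CO2 ran from −0.023 to 0.053, MT-ND3 from −0.015 to 0.13, MT-ND4L from −0.0041 to 0.063, MT-ND4 from −0.075 to 0.0043, MT-CYB from −0.022 to 0.086, MRPL50 from −0.14 to 0.039, MRPS18C from −0.14 to 0.070, MRPS30 from −0.090 to 0.076 and MRPS36 from −0.11 to 0.019. In FPKM, MT-ND2, MT-CO1, TRIB3, CHAC1, MTHFD2, DDIT4, NDUFS6, DCN and LUM were no longer called and MRRF was called lower (−0.81). The cause of these changes was not tested. Of 78 mitoribosome genes, 35 share over 5% of exon bases with another annotated gene, 23 of them on the opposite strand, and their reads may be split or mixed.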

Other observations

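Reads were looked for at nuclear copies of the mitochondrial large rRNA gene and at unannotated loci tagged as similar to members. Nuclear copies of the mtDNA mRNAs, MT-ATP8 and MT-ATP6 included, were not looked at, so reads shared with them are unknown. The large rRNA copies (the MTRNR2L family) held few reads: MTRNR2L8 had 19, 12 and 18 counts in the Control libraries and 21, 12 and 10 in the Sh-ZNF469 libraries. An unannotated locus that the authors tagged as similar to MRPL20 held 351, 355 and 425 counts in Control and 375, 325 and 433 in Sh-ZNF469, with overlap, and another tagged as similar to MRPS18C held 2, 7 and 10 counts in Control and 7, 6 and 5 in Sh-ZNF469.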
